A study of Mus musculus with 9 samples.

Results

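The genes described are 8 that mark the neurturin axis and the nerve of the salivary gland: the ligands Nrtn and Gdnf, the receptors Gfra2 and Ret, the neuronal genes Tubb3 and Kif5c, and the glial genes S100b and Cdh19. They were taken as a named list and matched by symbol to Ensembl identifiers, which gave 8 of the 54532 rows of the deposited count table. Of these, 7 passed the filter on low counts and were tested among 15224 genes, and Gdnf did not. RNA sequencing read counts came from submandibular glands (a paired major salivary gland under the jaw) of wild-type mice, all of which had received 10 Gy of radiation. The groups were 3 samples at 30 days, 3 at 60 days and 3 at 90 days after irradiation. Every group therefore carried the same genotype and the same dose, and the labels give no strain, age or sex. Non-irradiated glands are mentioned in the protocols and were not analysed here, and time since irradiation cannot be told apart from age. The labels do not say that the samples of a group came from separate animals, so p-values measure only the spread between these samples.

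Neurturin, the product of Nrtn, is a secreted growth factor that binds the co-receptor Gfra2, and the pair activates the receptor tyrosine kinase Ret. In the submandibular gland, neurturin keeps parasympathetic neurons alive and draws their axons to the epithelium, and those neurons drive saliva secretion by acetylcholine. Their cell bodies sit in small ganglia inside the gland, with their axons wrapped by Schwann cells. The gland is otherwise built of secretory acini and ducts, among them the granular duct of rodents, which makes growth factors and kallikreins.

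Library totals ran from 16541396 to 26065856 counts, of which the 10 most abundant genes made up 51.28% to 66.55%. Levels are CPM, the reads of a gene relative to its library's total after scaling by trimmed mean of M-values, and 3 counts, the limit that a count of 0 allows, stood for 0.101 to 0.213 CPM. These limits cover counting error only. Secretory markers of the labelled gland were abundant in sum in every library. A list of serous acinar genes summed to 8082 to 18730 CPM and a list of granular and striated duct genes to 18790 to 35580 CPM. Most of the acinar sum came from Pip (mean 11100 CPM) and most of the duct sum from Klk1 (mean 20400 CPM). Not every marker was present: Smr3a of the acinar list had 1 count in all. The test of each difference was the quasi-likelihood test of edgeR, Benjamini-Hochberg adjusted over all 15224 genes at a threshold of 0.05, and every adjusted p below for a gene comes from that test unless another tool is named. In bulk samples, fewer cells of a type and less RNA per cell cannot be told apart.

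Neuron genes did not sit evenly in the libraries, and this bears on every neuronal value below. Of 23 pan-neuronal and axonal genes other than the members, 20 were highest in 90-day sample 1 and 1 in 90-day sample 2. Over all genes with a count, 10.29% were highest in 90-day sample 1. The 23 genes summed to 56.8 to 71.3 CPM in the 30- and 60-day libraries and to 99.8, 66.7 and 64.3 CPM in 90-day samples 1, 2 and 3. Sample 1 thus stood above all 8 other libraries, and sample 3 lay within the range of the earlier time points. Map2, a microtubule protein of dendrites at 38.9 to 55.3 CPM, made up much of each sum and was not raised in sample 1, where it stood at 43.6 CPM.

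Genes of cholinergic neurons, the type found in the parasympathetic ganglion, were also mostly highest in 90-day sample 1. Of 16 detected genes on that list of 19, 13 were highest in 90-day sample 1, and Npy, Isl1 and Hmx2 had no count in any library. The number with a count was 6 to 10 in the 30- and 60-day libraries, and 16, 14 and 8 in 90-day samples 1, 2 and 3. That number depends on depth: 3 counts stood for 0.101, 0.103 and 0.1505 CPM in 90-day samples 1, 2 and 3. In the 30- and 60-day libraries 3 counts stood for 0.125 to 0.213 CPM. How many of all genes had a count in each library was not computed. Slc18a3, the vesicular acetylcholine transporter, was at 0.0708, 0.416 and 0.651 CPM at 30 days, at 0.259, 0 and 0 CPM at 60 days, and at 3.10, 0.515 and 0 CPM in 90-day samples 1, 2 and 3. Slc5a7, the choline transporter, had no count at 30 days, reached 0.125 CPM at 60 days, and stood at 1.68, 0.206 and 0 CPM at 90 days. Chat, the enzyme that makes acetylcholine, had counts only in 90-day samples 1 and 2, at 0.303 and 0.0343 CPM. Vip, a peptide of parasympathetic neurons, stood at 1.08 and 1.03 CPM in those libraries and at up to 0.173 CPM in the rest. The list summed to 23.7 to 33.5 CPM in the 30- and 60-day libraries and to 50.0, 29.9 and 35.2 CPM in 90-day samples 1, 2 and 3, with Nos1, the neuronal nitric oxide synthase, making up most of each sum. By the sum, sample 2 therefore lay within the earlier range and sample 3 a little above it. By the number of genes with a count, which was not adjusted for depth, sample 2 stood above both. Single genes above every earlier library numbered 13, 8 and 3 of 16 in 90-day samples 1, 2 and 3. The share of all genes above every earlier library was not computed, so these counts do not show whether the pattern is particular to cholinergic genes. On the list of 7 genes of sympathetic neurons, 3 passed the filter, and the list summed to 1.33 to 4.46 CPM. Slc6a2, the noradrenaline transporter, had counts in every library (0.750 to 2.08 CPM), as did Slc18a2, the vesicular monoamine transporter (0.334 to 1.91 CPM). Gata3, a transcription factor, ranged from 0 to 0.769 CPM. Th, the first enzyme of noradrenaline synthesis, reached 0.0834 CPM at most. Dbh, the enzyme that makes noradrenaline, had 4 counts in 90-day sample 1 and none elsewhere.

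**Figure D1:**
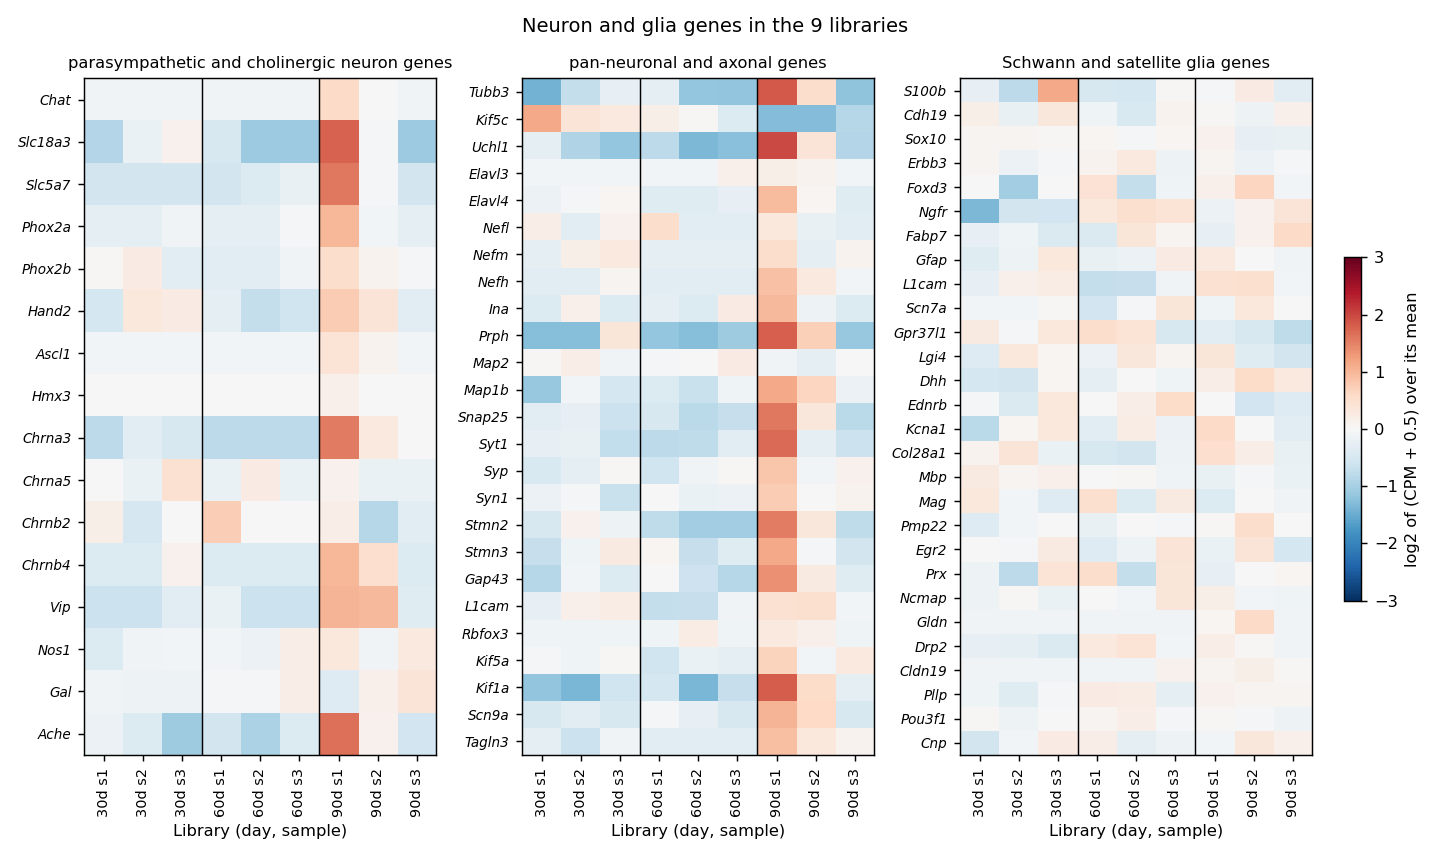
Level of the neuronal and glial genes shown in each library, as log2 of (CPM + 0.5) relative to that gene's mean over the 9 libraries (rows are genes by list, columns are libraries by day and sample). Most rows of the neuronal lists are highest in 90-day sample 1 and fewer are raised in 90-day sample 2, while Kif5c is highest in 30-day sample 1; of 29 glial genes other than the members, 4 are highest in 90-day sample 1.

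Of the 7 members tested, none passed at 60 against 30 days, none at 90 against 60 days, and 1, Kif5c, at 90 against 30 days. Over all genes tested, 1.56% passed at 60 against 30 days, 0.256% at 90 against 60 days and 3.57% at 90 against 30 days. Counts of list genes called by edgeR below are to be read against these shares. At an unadjusted p under 0.05, edgeR gave 2 members at 60 against 30 days (Nrtn, Kif5c) and 4 at 90 against 60 days (Gfra2, Ret, Tubb3, Kif5c), and 1 at 90 against 30 days (Kif5c). Over all genes tested, 12.4%, 10.8% and 16.8% were at an unadjusted p under 0.05 in the 3 comparisons in turn, and the counts at that threshold below are to be read against these shares. At 60 against 30 days and at 90 against 60 days, DESeq2 passed Kif5c alone and limma-voom passed no member. Any difference among the 3 time points was called for 1 of 7 members, Kif5c, and for 3.29% of all genes. The median log2 difference of the members was -0.29, 0.17 and -0.12 in the 3 comparisons in that order, against -0.00, 0.00 and 0.01 over all genes tested. The comparisons share libraries and are not independent of each other.

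**Figure D2:**
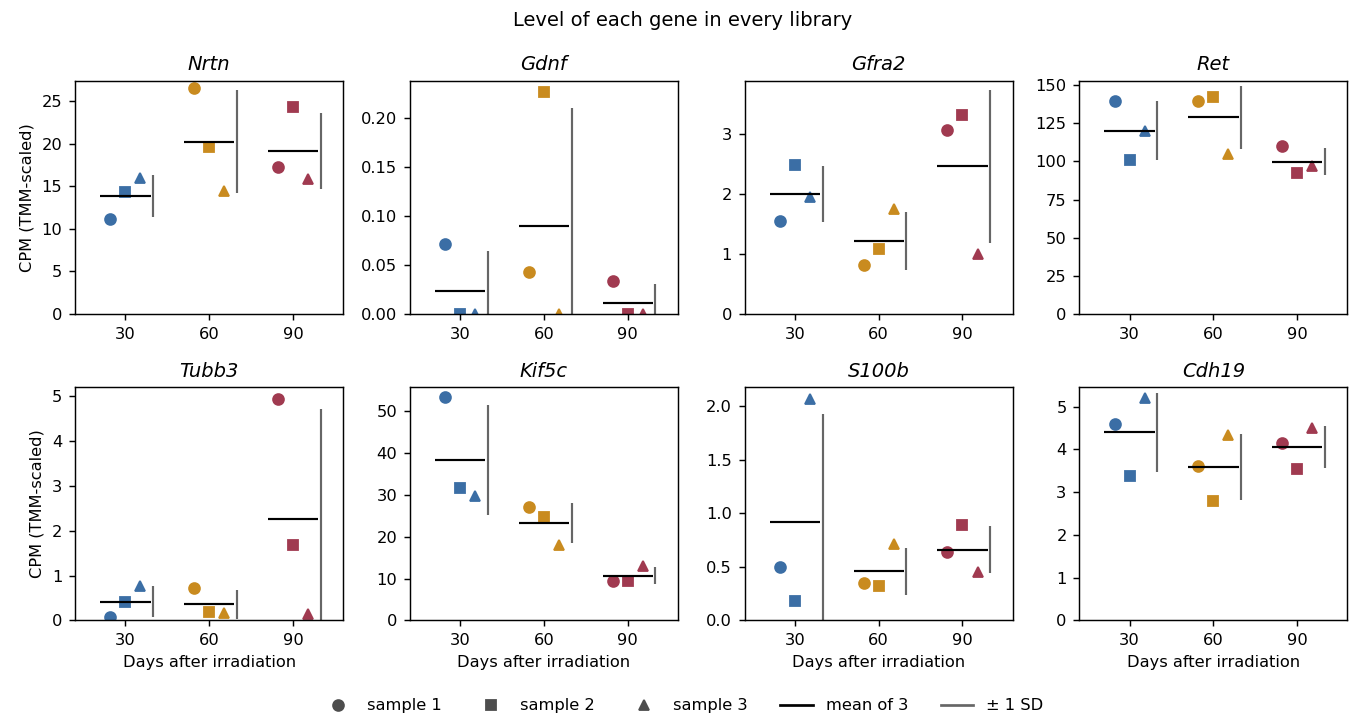
Level of each of the 8 members in each of the 9 libraries against days after irradiation, in CPM on linear axes that start at 0, with a line at the mean of each time point and a bar of 1 SD to each side. Kif5c is the member whose 3 time points do not overlap, and Tubb3 has its 2 highest values in 90-day samples 1 and 2.

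The ligand Nrtn (ENSMUSG00000039481, GRCm38 chr17:56751325-56757530, minus strand) was well expressed, at 11.1, 14.4 and 16.0 CPM in 30-day samples 1 to 3. It stood at 26.6, 19.7 and 14.5 CPM at 60 days and at 17.3, 24.3 and 15.9 CPM at 90 days. The 2 highest 60-day values and 2 of the 90-day values lay above every 30-day value, and 1 library of each later group overlapped with 30 days. Mean Nrtn was 13.8 ± 2.50 CPM, 20.3 ± 6.07 CPM and 19.2 ± 4.51 CPM (SD, n = 3 in each group) at the 3 time points in turn. Nrtn differed by 0.54 ± 0.23 (SE) on the log2 scale at 60 against 30 days (95% interval 0.05 to 1.04, adjusted p = 0.345) and by 0.47 ± 0.23 at 90 against 30 days (-0.02 to 0.96, adjusted p = 0.322). Neither passed the threshold. Nrtn passed only when genes with low counts were kept in the fit, with an adjusted p of 0.00791 at 60 days and 0.0248 at 90 days.

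Gdnf (ENSMUSG00000022144, chr15:7810846-7837575, plus strand), the related ligand that founds the family, was close to absent at this depth. It had 8 counts in all and none in 5 of the 9 libraries, with a highest value of 0.226 CPM in 60-day sample 2. That value was 5 counts, and no other library had more than 1. In the fit with no filter on low counts, its adjusted p was 0.813, 0.74 and 0.974 at 60 against 30, 90 against 60 and 90 against 30 days. Artn and Pspn, the remaining ligands of the family (artemin and persephin), had 24 counts each over the 9 libraries and were not tested. Neurturin was thus the 1 family ligand measured above the filter.

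The receptor gene Ret (ENSMUSG00000030110, chr6:118151745-118197718, minus strand) was abundant and even. It stood at 139.5, 101.0 and 119.7 CPM at 30 days, 139.6, 142.1 and 104.7 CPM at 60 days, and 110.1, 92.7 and 97.0 CPM at 90 days. The 3 time points overlapped, with 2 of the 90-day values below every earlier value. Ret fell short of the threshold at 90 against 60 days, with a log2 difference of -0.37 ± 0.13 (95% interval -0.65 to -0.09, adjusted p = 0.319), and at 90 against 30 days, with -0.26 ± 0.13 (-0.54 to 0.02, adjusted p = 0.331).

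Gfra2 (ENSMUSG00000022103, chr14:70890120-70979838, plus strand), the co-receptor that gives Ret its neurturin specificity, was scarce. Its levels were 1.56, 2.49 and 1.95 CPM at 30 days, 0.819, 1.08 and 1.75 CPM at 60 days, and 3.07, 3.33 and 1.00 CPM at 90 days. The 90-day samples 1 and 2 had the 2 highest Gfra2 values of all 9 libraries, and 90-day sample 3 had the second lowest. At 90 against 60 days the log2 difference was 1.03 ± 0.41 (adjusted p = 0.361) with all libraries, and -0.29 with 90-day sample 3 as the only 90-day library, a sign that its low value fixes. At 60 against 30 days Gfra2 differed by -0.72 ± 0.42 (95% interval -1.60 to 0.17, adjusted p = 0.53).

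Ligand, kinase and co-receptor were present at unequal levels. Per kilobase of exon, Nrtn averaged 17.4 CPM and Ret 17.2 CPM over the 9 libraries, Kif5c 3.37, Cdh19 0.938, Tubb3 0.543, Gfra2 0.536, S100b 0.457 and Gdnf 0.0113. The ratio of Ret to Gfra2, both per kilobase, ranged from 14.6 in 90-day sample 2 to 89.1 in 60-day sample 1. Ret RNA thus exceeded Gfra2 RNA in every library.

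Of the 11 genes of the GDNF family list (ligands, co-receptors and the alternative receptors Ncam1 and Sdc3), 7 were tested and edgeR called none in any of the 3 comparisons. DESeq2 and limma-voom called none either, and at an unadjusted p under 0.05 edgeR gave 1 gene at 60 against 30 days (Nrtn), 2 at 90 against 60 days (Gfra2, Ret) and 0 at 90 against 30 days. The median log2 differences were -0.20, 0.33 and 0.13. Gfra3, the artemin co-receptor, ranged from 4.44 to 7.83 CPM. Gfra1, the Gdnf co-receptor, stayed between 0.334 and 1.01 CPM. Ncam1, an adhesion molecule that also binds Gdnf, ranged from 0.733 to 3.63 CPM, and Sdc3, a proteoglycan that binds family ligands, from 13.5 to 26.6 CPM. Gfra4 had 43 counts in all.

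Among 16 adaptors and signal proteins that act downstream of Ret, 13 were tested. EdgeR called 1 at 90 against 30 days, where 3.57% of all genes were called, and none at the other comparisons. Gab1, a docking protein that carries the signal to PI3 kinase, was at 35.1, 30.5 and 29.3 CPM at 30 days, 23.6, 23.0 and 26.1 CPM at 60 days, and 23.1, 22.5 and 21.8 CPM at 90 days. All 30-day values lay above all later ones. The fall was -0.49 ± 0.11 on the log2 scale (adjusted p = 0.0176). The call ended with library-size scaling, where the difference was -0.26 (adjusted p = 0.413), and when 30-day sample 1, 90-day sample 2 or 90-day sample 3 was left out, with adjusted p of 0.0760 to 0.122. At the other comparisons edgeR gave 3 adaptor genes at an unadjusted p under 0.05 (60 against 30 days) and 0 (90 against 60 days), and DESeq2 and limma-voom called none.

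Kif5c (ENSMUSG00000026764, chr2:49619298-49774778, plus strand) encodes a kinesin-1 heavy chain, the motor that carries cargo along microtubules, and is used as a neuronal gene. It was the member that fell. The levels were 53.5, 31.7 and 29.8 CPM in 30-day samples 1 to 3, 27.2, 24.6 and 18.1 CPM at 60 days, and 9.50, 9.45 and 13.0 CPM at 90 days. The groups did not overlap at any step, and every 90-day library was below every 60-day library. Mean Kif5c was 38.3 ± 13.2 CPM, 23.3 ± 4.72 CPM and 10.7 ± 2.06 CPM (SD, n = 3 in each group) at the 3 time points in turn.

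At 90 against 30 days Kif5c fell by 1.85 on the log2 scale (SE 0.25, 95% interval -2.39 to -1.31, adjusted p = 0.00253). The single steps did not pass: -0.71 ± 0.23 at 60 against 30 days (adjusted p = 0.223) and -1.14 ± 0.24 at 90 against 60 days (adjusted p = 0.113). DESeq2 called both steps, with adjusted p of 0.0382 and 0.000109. Leaving out each library in turn gave -2.01 to -1.54 at 90 against 30 days, with adjusted p of 0.000127 to 0.0267. Without 90-day samples 1 and 2, left out together, the difference was -1.56 and the adjusted p rose to 0.173 with 1 library left at 90 days. The level of Kif5c in those 2 libraries, 9.50 and 9.45 CPM, was the lowest of the 9, and sample 1 was the library in which most other neuron genes were highest.

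The promoters of Kif5c and Tubb3 are shown because Kif5c was the member called and Tubb3 is the other neuronal member. Both come from RefSeq (GRCm38.p6), which gave a promoter for 5 of the 8 members, and run 5′ to 3′ from 250 bases before to 50 after the start. Capitals mark matches on either strand to the GC box GGGCGG, to the CCAAT box CCAAT, to the TATA box TATAAA, to the E-box CACGTG and to the cAMP response element TGACGTCA; no 2 of these matches overlap in the windows shown. Kif5c lies at chr2:49619036-49619335 and Tubb3 at chr8:123411303-123411602, both on the plus strand.
Kif5c: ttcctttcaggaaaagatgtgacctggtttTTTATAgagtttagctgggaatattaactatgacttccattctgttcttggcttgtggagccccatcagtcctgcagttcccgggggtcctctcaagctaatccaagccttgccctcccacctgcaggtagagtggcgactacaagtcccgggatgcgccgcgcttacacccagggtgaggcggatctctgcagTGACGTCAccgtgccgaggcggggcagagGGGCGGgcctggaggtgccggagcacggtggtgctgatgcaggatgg
Tubb3: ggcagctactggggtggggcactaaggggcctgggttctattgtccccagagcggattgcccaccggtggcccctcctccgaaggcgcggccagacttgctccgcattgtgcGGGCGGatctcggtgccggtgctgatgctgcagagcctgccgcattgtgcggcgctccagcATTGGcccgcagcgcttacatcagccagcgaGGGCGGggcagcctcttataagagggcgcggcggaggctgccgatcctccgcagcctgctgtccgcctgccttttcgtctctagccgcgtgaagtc
In the Kif5c window the cAMP response element TGACGTCA began 26 bases before the start. That motif was in 1.79% of the 32851 promoters searched, and Tubb3 did not hold it. Kif5c also held a GGGCGG after the start, a motif in 35.66% of promoters, and TATAAA on the reverse strand 220 bases before it, in 13.62%. Tubb3 held GGGCGG at 138 and 46 bases before its start and CCAAT on the reverse strand at 77 bases, the latter in 37.41% of promoters. Neither window held CACGTG, which was in 7.15%. A match describes letters and does not show a bound site.

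All 7 genes of the kinesin-1 list were tested, and Kif5c was the 1 called at 90 against 30 days by edgeR, DESeq2 and limma-voom. Kif5b, the heavy chain found in most cells, stayed at 114.5 to 146.2 CPM and differed by -0.02 ± 0.11 at 90 against 30 days (adjusted p = 0.964). Kif5a, the other neuronal heavy chain, ranged from 3.24 to 8.52 CPM with its highest value in 90-day sample 1, and differed by 0.40 ± 0.23 (adjusted p = 0.392). The light chains Klc1, Klc2, Klc3 and Klc4, which bind cargo, differed by 0.05, -0.08, -0.19 and 0.12.

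The share of Kif5c among the 3 heavy chains, each per kilobase of exon, did not depend on the scaling of libraries. It was 29.9%, 21.4% and 21.4% at 30 days, 20.5%, 16.4% and 11.8% at 60 days, and 7.21%, 7.77% and 9.93% at 90 days. The groups did not overlap, and the means were 24.2 ± 4.92%, 16.2 ± 4.35% and 8.30 ± 1.43% (SD, n = 3 in each group). This share was computed with the fall of Kif5c known and was not tested.

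**Figure D3:**
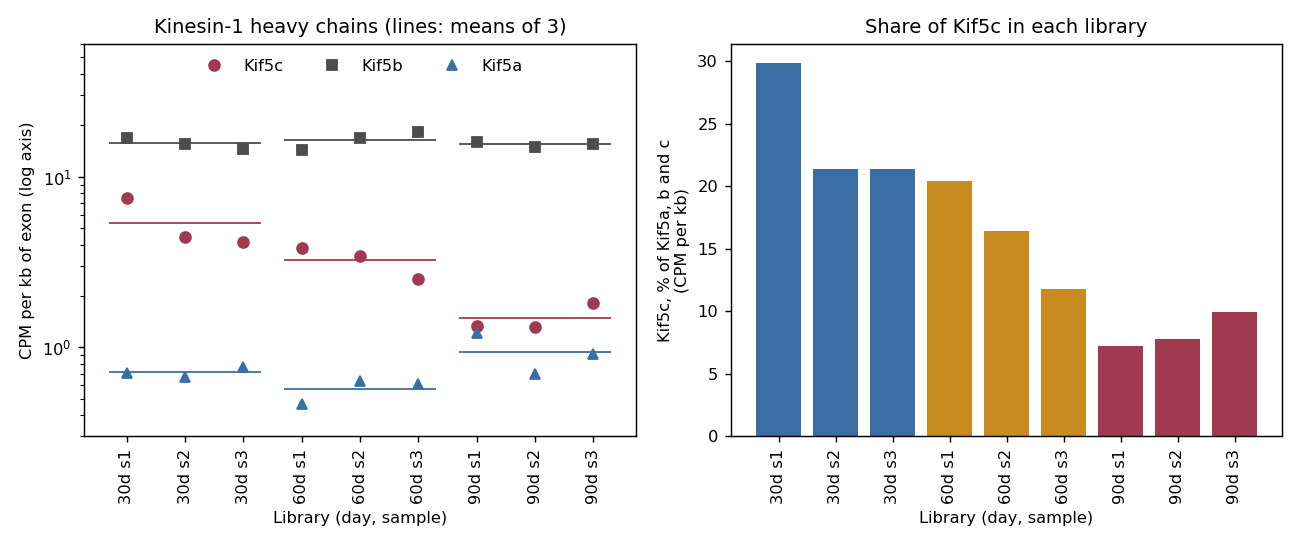
Left, CPM per kilobase of exon (log axis) of the heavy chains Kif5c, Kif5b and Kif5a in each library, with lines at the means of 3 libraries; right, Kif5c as a percentage of the 3 chains. The share of Kif5c goes from 21.4% to 29.9% at 30 days to 7.21% to 9.93% at 90 days while Kif5b ranges from 14.3 to 18.3 CPM per kilobase.

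Tubb3 (ENSMUSG00000062380, chr8:123411424-123422015, plus strand), the beta-tubulin used to stain neurons, was near its detection limit in most libraries. It had 1, 7 and 13 counts at 30 days, 17, 4 and 4 at 60 days, and 147, 49 and 3 at 90 days. In CPM these were 0.0708, 0.416 and 0.769, then 0.733, 0.181 and 0.167, then 4.95, 1.68 and 0.151. The 90-day samples 1 and 2 were above all other libraries, while 90-day sample 3 was second lowest. The log2 difference at 90 against 30 days was 2.40 ± 1.10 (95% interval -0.09 to 4.90, adjusted p = 0.317) and at 90 against 60 days 2.66 ± 1.07 (0.22 to 5.09, adjusted p = 0.432). With 90-day sample 3 as the only 90-day library, a choice made after seeing the data, these turned to -1.47 and -1.24. Its low value fixes those signs. Leaving out 90-day sample 3 gave an adjusted p of 0.0336 for any difference among the time points, against 0.296 with it.

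The rest of the pan-neuronal list split in part the same way. Of its 23 genes other than the members, 21, 11 and 5 stood above every 30- and 60-day library in 90-day samples 1, 2 and 3, and 18 were higher in sample 2 than in sample 3. Uchl1 and Prph, chosen after their values were seen, were among those 18. Of 28 detected glial genes other than the members, 8, 8 and 3 stood above every earlier library in 90-day samples 1, 2 and 3. Of the same 28, 20 were higher in sample 1 than in sample 3, and 21 were higher in sample 2 than in sample 3. The order of 90-day samples 2 and 3 was thus not particular to neuronal genes. Shares over all genes were not computed for these counts, so they do not show how much is general to the 90-day libraries. Uchl1, a neuronal ubiquitin hydrolase, stood at 4.99, 1.31 and 0.251 CPM in 90-day samples 1 to 3 and at 0.0452 to 0.637 CPM before. Prph, an intermediate filament of peripheral neurons, stood at 3.71, 1.48 and 0.0502 CPM, and at 0 to 1.07 CPM before. Of the 25 genes with the members, 11 were tested. In the main edgeR fit none was called higher in any comparison and Kif5c was the 1 called lower, at 90 against 30 days. With a term for sample number (the replicate block), edgeR called 2 at 90 against 60 days and 3 at 90 against 30 days. With library-size scaling it called 1 and 2 in those comparisons. The filter can keep a gene for its level in a single group. Among the 11, Kif1a stood at 0 to 0.388 CPM at 30 and 60 days and at 0.552 to 4.04 CPM at 90 days. The medians and counts of the list take in only the genes kept and are no test of the list. The median differences were -0.33, 1.19 and 1.06, and with 90-day sample 3 alone the latter 2 were 0.32 and -0.17. Sample 3 was set apart after its low neuronal values were seen, so the medians with it alone follow from that choice. At an unadjusted p under 0.05 edgeR gave 2 of the 11 at 60 against 30 days, near the share of all genes, 9 at 90 against 60 days and 4 at 90 against 30 days. In the first comparison Kif5c and L1cam were lower. In the latter 2, Kif5c was lower and the other genes counted were higher. DESeq2 called Kif5c at each comparison, with Stmn2 at 90 against 60 days and Map1b at 90 against 30 days, both named after their values were seen. Stmn2, a growth cone protein, was at 4.92, 1.89 and 0.602 CPM at 90 days, and Map1b, an axonal microtubule protein, at 6.74, 4.64 and 2.41 CPM.

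Of the 4 tested genes on the cholinergic list and the 3 tested on the sympathetic list, edgeR, DESeq2 and limma-voom called none in any comparison. At an unadjusted p under 0.05, edgeR gave 1, 2 and 1 cholinergic genes and 1, 1 and 0 sympathetic genes in the 3 comparisons. The medians take in only the 4 of 19 and 3 of 7 genes that passed the filter, which can keep a gene for its 90-day values. The median differences at 90 against 60 days were 1.53 for the cholinergic list and 1.51 for the sympathetic list. With 90-day sample 3 alone, set apart after the neuronal values were seen, these were -0.23 and 1.65, which is no test.

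Within the beta-tubulins, Tubb3 made up 0.0620%, 0.250% and 0.470% per kilobase at 30 days, 0.484%, 0.122% and 0.0982% at 60 days, and 3.24%, 0.913% and 0.0826% at 90 days. Tubb4b and Tubb5, the broadly expressed isotypes, ranged from 88.0 to 136.5 CPM and from 51.0 to 90.2 CPM. Of 8 beta-tubulin genes 7 were tested. Tubb2b, an isotype enriched in neurons, was the 1 called, at 90 against 30 days, where 3.57% of all genes were called. Its levels were 0.425, 0.772 and 0.769 CPM at 30 days, 1.68, 0.723 and 0.875 CPM at 60 days, and 2.70, 2.30 and 1.81 CPM at 90 days. All 90-day values lay above all others, those of 90-day sample 3 included. The rise at 90 against 30 days was 1.77 ± 0.42 (adjusted p = 0.0211) and was lost without 30-day sample 1 or 2 or 90-day sample 1 or 2, with adjusted p of 0.0579 to 0.118. With 90-day sample 3 alone it was 1.43 (adjusted p = 0.464). Tubb2a, Tubb4a and Tubb6 differed by 0.55, 1.04 and 0.34 and did not pass, and Tubb1 had 2 counts in all.

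S100b (ENSMUSG00000033208, chr10:76253853-76261159, plus strand), a calcium-binding protein of Schwann and satellite glia, was scarce and uneven. It stood at 0.496, 0.178 and 2.07 CPM at 30 days, 0.345, 0.316 and 0.709 CPM at 60 days, and 0.640, 0.893 and 0.451 CPM at 90 days. The groups overlapped, and 30-day sample 3 held the highest value of all. The differences were -1.0005 ± 0.69 at 60 against 30 days (adjusted p = 0.606) and -0.46 ± 0.66 at 90 against 30 days (adjusted p = 0.8). Without 30-day sample 3 they turned to 0.47 and 0.9996. S100b overlaps Dip2a on the opposite strand, which had 230 to 476 counts per library, and whether the counting used strand is not given in the sources used here.

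Cdh19 (ENSMUSG00000047216, chr1:110888326-110977584, minus strand), a cadherin of the Schwann cell lineage, was present at a similar level in every library. It stood at 4.60, 3.39 and 5.21 CPM at 30 days, 3.62, 2.80 and 4.34 CPM at 60 days, and 4.14, 3.54 and 4.51 CPM at 90 days. The 3 time points overlapped throughout. The log2 difference was -0.29 ± 0.24 at 60 against 30 days (95% interval -0.80 to 0.22), 0.17 ± 0.24 at 90 against 60 days (-0.33 to 0.67) and -0.12 ± 0.24 at 90 against 30 days (-0.62 to 0.39), with adjusted p of 0.693, 0.853 and 0.872. In 90-day samples 1 and 2 Cdh19 stood within the range of the other libraries.

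By the library of the highest value, the wider Schwann and satellite glia list was spread more evenly than the neuronal lists. Of its 29 genes other than the members, 4 were highest in 90-day sample 1 and 8 in 90-day sample 2. Over all genes with a count, 10.29% and 13.0% were highest in those libraries. The list summed to 331.1 to 424.4 CPM. Sox10, Ngfr and Erbb3, at means of 107.6, 84.05 and 78.68 CPM, made up most of the sum, and glia are not the only source of Sox10 and Ngfr. Of the 31 genes with the members, 24 were tested, with medians of 0.02, 0.13 and 0.12 in the 3 comparisons. Ngfr was the 1 gene called, higher at 60 against 30 days and at 90 against 30 days, where 1.56% and 3.57% of all genes were called. None was called at 90 against 60 days by edgeR, DESeq2 or limma-voom, with 4 at an unadjusted p under 0.05 in edgeR.

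Ngfr, the low-affinity neurotrophin receptor of glia and other cells, stood at 32.8, 57.0 and 56.5 CPM at 30 days, 104.8, 116.7 and 111.8 CPM at 60 days, and 74.0, 92.6 and 110.3 CPM at 90 days. The 30-day values lay below all later ones. It rose by 1.18 ± 0.20 at 60 against 30 days (adjusted p = 0.0134) and by 0.92 ± 0.20 at 90 against 30 days (adjusted p = 0.0276). Leaving out any single 60-day library ended the first call, with adjusted p of 0.0610 to 0.0778. Leaving out 60-day sample 1 or 3 or 90-day sample 2 or 3 ended the second, with adjusted p of 0.0628 to 0.104, as did the fit of only the 6 samples compared (adjusted p = 0.119). Among the granular and striated duct markers, 5 of 8 rose at 60 against 30 days and at 90 against 30 days (among them Egf, Klk1b22 and Ren1), and their part in the Ngfr result was not tested.

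**Figure D4:**
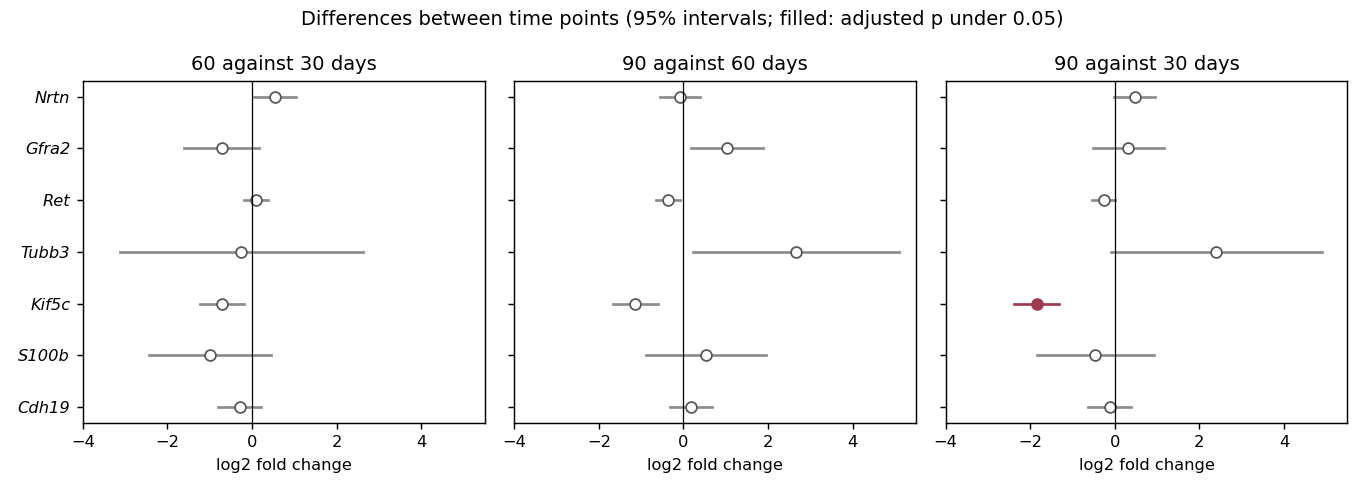
Log2 difference of each tested member in each comparison (points with 95% intervals from the edgeR fit, filled where the adjusted p is under 0.05; the vertical line is at 0). The interval of Kif5c at 90 against 30 days lies at -2.39 to -1.31, and those of Tubb3 and S100b are the widest.

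Other cell types moved with the libraries as well. The serous acinar list summed to 13370 to 16220 CPM at 30 days, 14330 to 18730 CPM at 60 days and 8082 to 11890 CPM at 90 days. Pip made up most of each sum, at means of 11560, 14100 and 7628 CPM at the 3 time points. The list did not move as one. Of its 7 tested genes at 90 against 30 days, edgeR called 2 lower and 1 higher (Amy1, 0.94, adjusted p = 0.00153), and 2 were above 0. All 6 endothelial and 7 of 8 basal and myoepithelial markers were highest in 90-day sample 2, against 13.0% of all genes with a count. The immune list was also highest there, at 169.2 CPM against 51.9 to 99.7 CPM in the others, with Jchain, the joining chain of secreted antibodies, at 52.5 CPM. Adipocyte, skeletal muscle and melanocyte markers summed to 7.41 to 17.99, 1.81 to 3.25 and 0.702 to 1.84 CPM, and fibroblast markers to 335.0 to 553.8 CPM. The part of these shifts in the values of the nerve genes was not tested.

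The genes most like each member over the 9 libraries were taken by Pearson r of log2 CPM among 13018 genes of at least 1 CPM on average. For Kif5c the nearest was Derl3, a protein of the endoplasmic reticulum degradation machinery of secretory cells (r = 0.985, Spearman rho = 1.0). Derl3 averaged 197.4 ± 17.8 CPM, 174.0 ± 7.80 CPM and 148.6 ± 13.0 CPM (SD, n = 3 in each group) at the 3 time points. The second was A530013C23Rik (r = 0.981). For Nrtn they were Bcl3 (0.967) and Gsr (0.958), for Gfra2 Ift57 (0.961) and AB124611 (0.946), and for Ret Slc41a1 (0.978) and AU040320 (0.967). For Tubb3 they were F5 (0.92) and Lgi2 (0.918), for S100b Gapdhs (0.94) and Efemp1 (0.936), and for Cdh19 Cep250 (0.888) and Tshz3 (0.881). These are the highest of 13018 values over 9 libraries that share scaling and tissue makeup, and are a description only.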

How the data were processed

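Read counts per gene were deposited by the authors as whole numbers for 54532 Ensembl identifiers. Per the submitters' processing notes, fastp, STAR, featureCounts and the mm10 build were used, and the annotation and strand setting are not given in the sources used here. Per the labels' protocols, total RNA from 4 gland sections of 50 µm was DNase-treated and made into SMARTER mRNA-seq libraries. Samples were grouped by the day in their titles, and 3 columns that match no sample here were not used.

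Genes were filtered with filterByExpr (minimum count 10) and scaled by TMM in edgeR 4.0.16. One model of all 9 libraries had a term for time point, with robust quasi-likelihood tests and Benjamini-Hochberg adjustment over 15224 genes. The standard error is the log2 difference divided by the root of F. Positions and exon lengths came from GENCODE M21 (GRCm38), which held 54495 identifiers. Alternatives used limma 3.58.1 and DESeq2 1.42.0 in R 4.3.3, and the procedure was tested on simulated data. Figures were drawn with matplotlib 3.10.9. No 2 libraries of a time point agreed within sampling noise.

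The members, lists and tests were chosen with earlier results of these data known. Named were the members, the GDNF family, kinesin-1 and beta-tubulin genes, up to 4 called genes of each wider list, up to 3 markers of each cell type list, and the 2 genes most like each member. Other genes, among them the single neuronal genes given with values, were chosen after their values were seen. Some genes of the lists are not reported here.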

Additional observations from a re-analysis of the deposited data

How the results depend on the processing

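The fall of Kif5c at 90 against 30 days passed in each of the 18 fits with other scaling, filters, tools, samples or a replicate block, and was lost only with 90-day sample 3 as the only 90-day library, an alternative chosen after seeing the data. Main counts of genes called were 238, 39 and 544 at 60 against 30, 90 against 60 and 90 against 30 days, and 501 for any difference. Library-size scaling moved the median of all genes to 0.05, 0.17 and 0.24 and gave 90 at 60 against 30 days and 277 for any difference. With that scaling the calls at 90 against 30 days were 406 higher and 34 lower, against 275 and 269. At 60 against 30 days they were 79 and 11 against 173 and 65, and at 90 against 60 days 19 and 9 against 14 and 25. Library sizes without the 10 most abundant genes gave 103 and 112, 16 and 20, and 212 and 385. DESeq2 gave 376, 150, 867 and 847, no filter gave 459, 354, 1045 and 1194, and 90-day sample 3 alone gave 7, 117 and 193 in the last 3. Leaving out each library gave 73 to 244, 16 to 103, 184 to 703 and 220 to 683. Members called were 1 (DESeq2) and 2 (no filter) at 60 against 30 days. At 90 against 60 days they were 1 under library-size scaling, DESeq2, no filter, the 6 samples alone and the replicate block, and 0 to 1 leaving out each library. At 90 against 30 days and for any difference they were 2 with no filter and 0 with 90-day sample 3 alone, and 1 to 2 for any difference leaving out each library. Causes were not tested beyond the fewer samples or genes.

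Same-numbered samples shared only a number: deviations correlated at over 0.1 in 1 of 9 pairs, and 4 of 9 libraries matched their own number best. The replicate block gave 270, 92, 717 and 609 genes.

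Signs turned as follows, for differences that were not called. Library-size scaling gave 0.13 for Nrtn at 90 against 60 days and 0.10 for Cdh19 at 90 against 30 days, and limma-voom gave 0.13 for S100b at 90 against 30 days. With 90-day sample 3 alone, Gfra2 gave -0.29 and -1.003 and Tubb3 -1.24 and -1.47 at 90 against 60 and 30 days, S100b -0.032 at 90 against 60 days and Cdh19 0.032 at 90 against 30 days. Leaving out each library gave -0.29 to 0.17 for Nrtn at 90 against 60 days. At 60 against 30 days it gave -0.0085 to 0.23 for Ret, -1.28 to 0.50 for Tubb3 and -1.49 to 0.47 for S100b. At 90 against 30 days it gave -0.96 to 0.9996 for S100b and -0.28 to 0.019 for Cdh19. A minimum of 10 counts in every library left 5 of the 7 members. Counts limit Gdnf, Tubb3 and S100b most.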

Other observations

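Several genes listed as neuronal or glial were present in every library, at values above those of Tubb3 or S100b in any library. These genes were singled out after their values were seen. Nos1, the neuronal nitric oxide synthase, ranged from 19.3 to 32.1 CPM over the 9 libraries. Sox10, a transcription factor of the neural crest and of Schwann cells that salivary epithelium also makes, ranged from 90.5 to 117.2 CPM. Erbb3, a neuregulin receptor, ranged from 69.1 to 96.3 CPM, and Mbp, a myelin protein gene with further transcripts outside glia, from 23.4 to 32.7 CPM. These levels were not flat over time. All 30-day Mbp values lay above all later ones, with a log2 difference of -0.32 at 90 against 30 days (adjusted p = 0.125). Nos1 differed by 0.37 in that comparison (adjusted p = 0.181), and neither passed. In 90-day samples 1, 2 and 3, Nos1 stood at 32.1, 23.8 and 31.6 CPM, Sox10 at 117.2, 90.5 and 91.7 CPM, and Erbb3 at 83.7, 69.1 and 75.5 CPM. None of the 3 was raised in both 90-day samples 1 and 2 over sample 3, as Uchl1, Prph and Tubb3 were.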
